A study of Mus musculus with 24 samples.

Results

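The interferon regulatory factors described here are 8 transcription factor genes, Irf1, Irf2, Irf3, Irf4, Irf5, Irf7, Irf8 and Irf9, matched by symbol among the 41388 genes of the count table. They were measured by RNA sequencing of a portion of the heart in experimental autoimmune myocarditis (EAM), in which mice immunized with a cardiac antigen develop an autoimmune inflammation of the heart muscle. The mice were wild type male Balb/c (BALB/cAnNCrl in the study's methods), 8 to 10 weeks old at immunization. EAM mice received a peptide of the alpha cardiac myosin heavy chain (MyHC-α) emulsified in supplemented complete Freund's adjuvant (SCFA) on day 0 and day 7, with pertussis toxin (PTX) on day 0. Control mice received the same SCFA and PTX, with PBS in place of the peptide, so both arms carried the adjuvant and the toxin. There were 4 EAM and 4 control hearts at each of day 10 (D10), day 15 (D15) and day 21 (D21), 24 in all, and EAM samples were chosen, where possible, to show inflammation. At D10, however, the study found no EAM mouse with raised leukocytes (CD45+ cells) in the heart or raised cardiac troponin I. The arms are compared at each day, and the EAM effect between days.

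Interferon regulatory factors share a DNA-binding domain that recognizes GAAA repeats, the core of the interferon-stimulated response element (ISRE). Some members act before interferon is made: Irf3 and Irf7 are phosphorylated below nucleic acid sensors and switch on type I interferon genes, and Irf5 acts below Toll-like receptors in macrophages. Others act after it: Irf9 is the DNA-binding part of the complex ISGF3, which also holds STAT2, and Irf1 is switched on by interferon-gamma at a gamma-activated site (GAS), while Irf2 binds the same elements as Irf1 and often opposes it. Irf4 and Irf8 are lineage factors of lymphoid and myeloid cells that bind DNA with PU.1 or BATF proteins.

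The letters upstream of 5 members are shown: the 3 whose promoter window holds such elements, and, of the others, those with the largest (Irf5) and the smallest (Irf3) difference at D15. Each line gives the 250 bases before the annotated start from RefSeq (GRCm38.p6, plus strand), at chr11:53769764-53770013 for Irf1, chr8:46739495-46739744 for Irf2, chr8:120736108-120736357 for Irf8, chr6:29526375-29526624 for Irf5 and chr7:44997398-44997647 for Irf3. Capitals mark a GAS (TTCNNNGAA), an ISRE core (GAAANNGAAA, searched on both strands) or the NF-κB consensus (kB, both strands).
Irf1: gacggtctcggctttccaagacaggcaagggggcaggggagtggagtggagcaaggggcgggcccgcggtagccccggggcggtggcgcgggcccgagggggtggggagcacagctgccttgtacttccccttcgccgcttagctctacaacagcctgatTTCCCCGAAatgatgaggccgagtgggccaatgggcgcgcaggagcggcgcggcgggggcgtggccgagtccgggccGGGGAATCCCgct
Irf2: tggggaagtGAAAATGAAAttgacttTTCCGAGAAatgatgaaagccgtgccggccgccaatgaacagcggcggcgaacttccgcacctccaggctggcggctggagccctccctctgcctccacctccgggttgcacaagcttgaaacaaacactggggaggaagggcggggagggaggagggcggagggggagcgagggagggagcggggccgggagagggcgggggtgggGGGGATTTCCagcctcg
Irf8: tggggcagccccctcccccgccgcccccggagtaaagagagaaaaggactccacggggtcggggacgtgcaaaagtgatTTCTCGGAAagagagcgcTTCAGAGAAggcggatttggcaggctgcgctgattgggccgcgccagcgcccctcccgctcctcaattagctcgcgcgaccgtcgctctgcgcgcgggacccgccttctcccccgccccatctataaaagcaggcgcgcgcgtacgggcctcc
Irf5: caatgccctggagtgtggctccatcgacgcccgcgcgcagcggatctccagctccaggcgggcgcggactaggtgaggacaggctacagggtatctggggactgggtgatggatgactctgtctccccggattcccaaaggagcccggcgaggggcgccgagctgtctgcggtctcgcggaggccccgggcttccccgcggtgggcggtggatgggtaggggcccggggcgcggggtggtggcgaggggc
Irf3: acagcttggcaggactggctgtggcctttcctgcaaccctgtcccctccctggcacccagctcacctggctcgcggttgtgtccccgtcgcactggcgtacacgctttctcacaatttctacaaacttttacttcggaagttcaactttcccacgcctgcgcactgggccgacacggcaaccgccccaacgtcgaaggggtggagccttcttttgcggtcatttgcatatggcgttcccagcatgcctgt
In GRCm38 the members lie apart, Irf1 at chr11:53770014-53778374, Irf2 at chr8:46739732-46847458, Irf3 at chr7:44997648-45002848, Irf4 at chr13:30749226-30766976, Irf5 at chr6:29526625-29541871, Irf8 at chr8:120736358-120756694 and Irf9 at chr14:55603571-55610030 on the plus strand and Irf7 at chr7:141262706-141266481 on the minus strand. All 8 members had at least 1 such window. Each search covered 300 bases, 250 before and 50 after the start, in 32851 windows of the genome, of which 8.3% held a GAS, 3.44% an ISRE core and 8.46% a kB match. Irf1 had a GAS at -90 to -82 from the start and a kB match at -13 to -4. Irf2 had an ISRE core, a GAS and a kB match in the window, and Irf8 had 2 GAS matches, at -171 to -163 and -153 to -145. The windows of Irf3, Irf4, Irf5, Irf7 and Irf9 held none of these letters. A match describes the letters and is no measurement of binding.

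Libraries held 15814863 to 24980864 assigned reads (median 19469782), so 3 reads correspond to 0.12 to 0.19 CPM, the read count scaled to library size. The 4 EAM libraries of D21 carry another library code in their labels than the other 20, so that code and EAM cannot be told apart at D21. EAM replicate 1 at D10 stood apart from the other D10 EAM hearts, with 194 CPM of the pan-leukocyte gene Ptprc against 27.7 to 56.7, and EAM replicate 3 at D21 was the least affected of its group, with 48.9 CPM against 96.3 to 229. The main counts, group means and list counts at D10 and D21 are also given without these hearts. Levels below are CPM after TMM normalization, and a member was called when edgeR's quasi-likelihood test gave a Benjamini-Hochberg adjusted p under 0.01 over all genes tested and a change of at least 2-fold. The labels do not say what else a replicate shares, so p-values measure the spread between these hearts.

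At D15, 7 of the 8 members rose in EAM hearts, led by Irf5, Irf8 and Irf1, while Irf3 did not pass. At D21, Irf5 and Irf8 were called, and at D10 no member was. Of all genes tested, 18.1% were called higher at D15, 4.3% at D21 and 0% at D10. All members passed the filter of 10 reads in 4 of 8 hearts at every day. At D15 the 4 EAM hearts lay above the 4 controls for 8 of 8 members, where 34.6% of all genes tested did so, and at D21 for 3 of 8 (Irf2, Irf5 and Irf8), against 17.8% of all genes. Without EAM replicate 3 at D21 it held for 7 of 8, all but Irf3, and 27.6% of all genes. At D10 it held for 0 of 8 members and 4.4% of all genes, and without EAM replicate 1 for 0 of 8 and 5.34%. In bulk tissue, fewer cells of a type and less RNA per cell cannot be told apart.

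**Figure D1:**
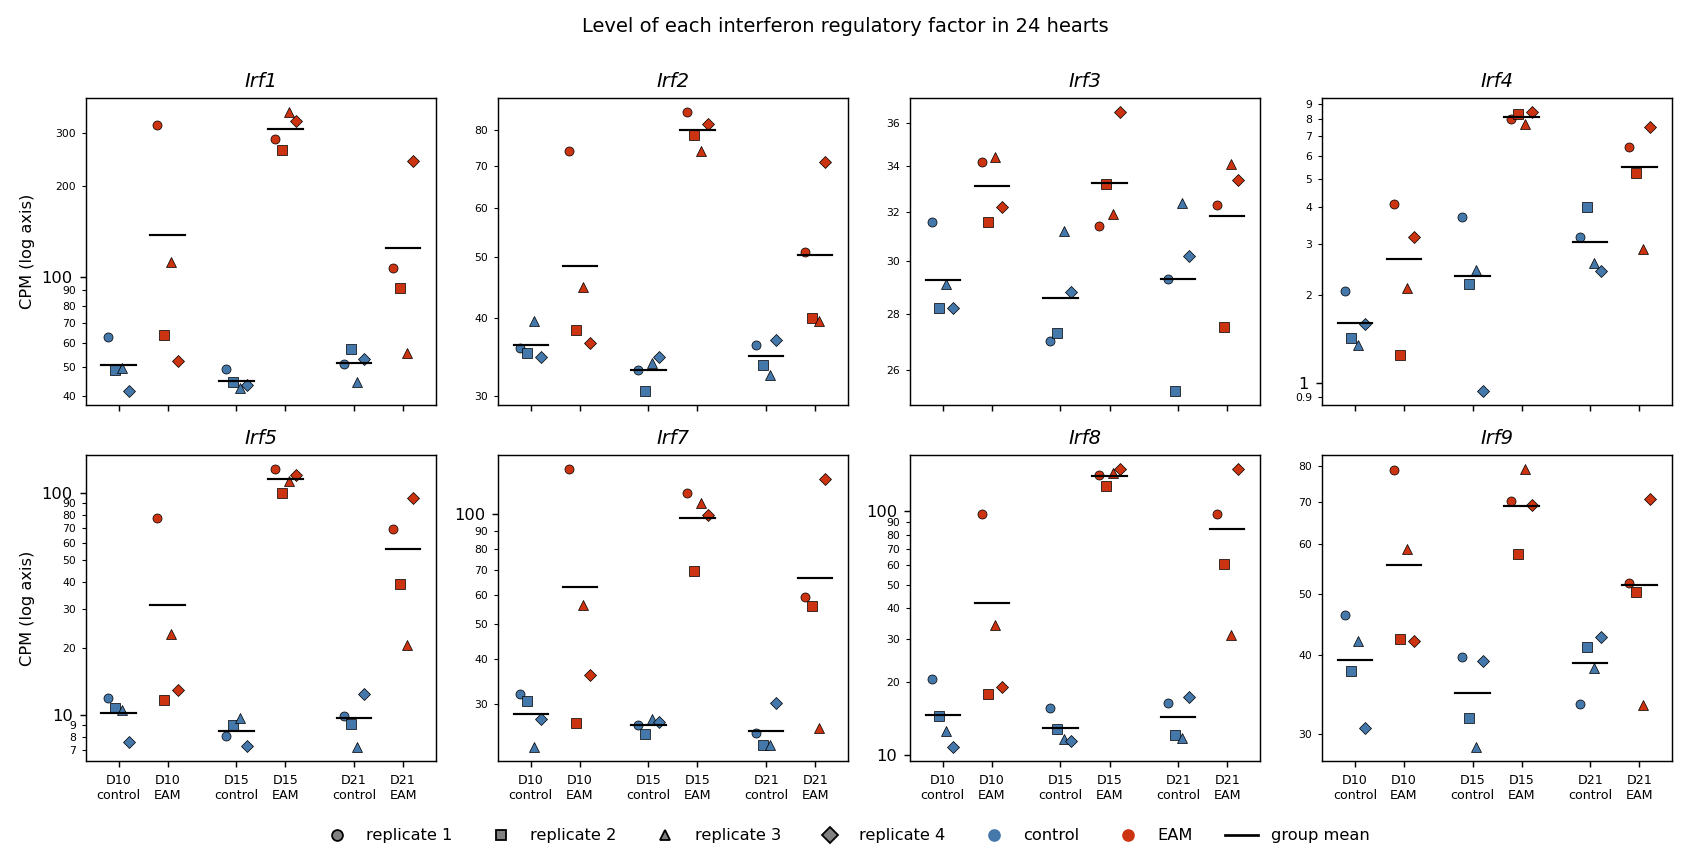
CPM of each member (log axis, a scale of its own in each panel) in the 24 hearts, by day and arm; symbols give the replicate and lines the group mean of 4. EAM hearts at D15 sit above their controls in every panel, by the least for Irf3 (31.4 to 36.5 against 27 to 31.2 CPM), and EAM hearts at D10 and D21 spread more widely than those of D15 in the panels of Irf1, Irf2, Irf4, Irf5, Irf7, Irf8 and Irf9.

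Irf1, the interferon-gamma responsive activator, had 288, 265, 353 and 331 CPM in EAM replicates 1 to 4 at D15, and 49.2, 44.5, 42.7 and 43.7 CPM in the controls. Every EAM heart was at least 5.89-fold above the control mean, and the groups lay far apart. Irf1 rose by 2.82 on the log2 scale (SE 0.10, edgeR adjusted p = 3.84e-08). At D10 the EAM hearts held 321, 64.2, 112 and 52.5 CPM against 41.8 to 62.9 in controls, so that replicate 1 was at the level of the D15 EAM hearts and replicate 4 was inside the control range. At D21 they held 107, 91.9, 55.6 and 243 CPM against 44.5 to 57.6, with only replicate 3 inside the control range.

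Irf2, the counterpart of Irf1 on the same elements, moved less. It had 73.9 to 85.3 CPM in EAM hearts at D15 and 30.6 to 34.6 in controls, a rise of 1.31 on the log2 scale (SE 0.07, edgeR adjusted p = 3.22e-07). The spread within each group was small, with a coefficient of variation of 6.04% in EAM and 5.31% in control hearts. At D21 the EAM hearts, at 39.5 to 71.1 CPM, did not overlap the controls at 32.4 to 36.8, but the difference of 0.56 on the log2 scale was not called (edgeR adjusted p = 0.0547).

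Irf9, the DNA-binding subunit of ISGF3, had 57.9 to 79.1 CPM in EAM hearts at D15 and 28.6 to 39.7 in controls. This was the smallest change that was called, 1.03 on the log2 scale (SE 0.13, edgeR adjusted p = 7.23e-05), next to the 2-fold limit. The adjusted p stayed below 0.01 but the change dropped under 2-fold without control replicate 2 (0.99), control replicate 3 (0.94) or EAM replicate 3 (0.99), and with all 12 control hearts as the controls (0.92). Stat2, which encodes its partner in ISGF3, rose by 1.82 on the log2 scale at D15 (SE 0.11, edgeR adjusted p = 9.56e-07). The exons of Irf9 share 123 bases, 2.3% of their length, with those of Rnf31 on the same strand.

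Irf3 and Irf7, the pair that acts below nucleic acid sensors, moved by different amounts. Irf7, which is itself an interferon-induced gene, had 114, 69.9, 107 and 99.6 CPM in EAM hearts at D15 and 24.9 to 27.3 in controls, a rise of 1.93 on the log2 scale (SE 0.14, edgeR adjusted p = 2.54e-06). EAM replicate 2 was the lowest of the 4, at 2.65-fold the control mean against 3.78-fold to 4.32-fold in the others. Irf3, which is present before stimulation in most cells, had 31.4, 33.2, 31.9 and 36.5 CPM against 27, 27.3, 31.2 and 28.8. The Irf3 groups did not overlap, by a gap between 31.2 and 31.4 CPM, and the difference of 0.25 on the log2 scale (SE 0.08) missed both limits (edgeR adjusted p = 0.0122). Across all 12 controls Irf3 varied 1.28-fold, from 25.3 to 32.4 CPM, and its EAM group means lay between 31.8 and 33.2 CPM at the 3 days.

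Irf5, a factor of macrophages below Toll-like receptors, had the largest change at D15. Its EAM hearts at D15 held 129, 100, 114 and 121 CPM, and its controls 8.03, 9.04, 9.69 and 7.30. The rise was 3.81 on the log2 scale (SE 0.12, edgeR adjusted p = 1.73e-08), and each EAM heart was 11.8-fold to 15.2-fold above the control mean. At D21 the EAM hearts held 69, 39.1, 20.7 and 95.3 CPM against 7.18 to 12.5 CPM, without overlap, and Irf5 was called (2.57 on the log2 scale, SE 0.45, edgeR adjusted p = 0.00718). The exons of Irf5 and those of Tnpo3 on the opposite strand share 411 bases, 14.1% of the Irf5 exon length, and Tnpo3 had 1533 to 2446 reads in every library. The kit keeps strand, but the sources used here do not state whether the counting used it.

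Irf8, the myeloid lineage factor, followed Irf5 closely. EAM hearts at D15 held 140, 127, 143 and 149 CPM and controls 15.6, 12.8, 11.7 and 11.5, a rise of 3.47 on the log2 scale (SE 0.11, edgeR adjusted p = 1.80e-08). At D21 the EAM hearts held 96.9, 60.6, 31.2 and 148 CPM against 11.8 to 17.3, without overlap (2.59, SE 0.44, edgeR adjusted p = 0.0069). Replicate 4 at D21 was thus at the level of D15, and replicate 3 was lowest.

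Irf4, the lymphoid member, was the least abundant, with 16 to 83 reads in control hearts. It had 7.99, 8.34, 7.72 and 8.45 CPM in EAM hearts at D15 and 3.70, 2.19, 2.43 and 0.943 in controls, a rise of 1.84 on the log2 scale (SE 0.29, edgeR adjusted p = 3.08e-04). The 4 EAM values had a coefficient of variation of 4.09%, and the controls one of 48.8%. At D21 it had 2.87 to 7.51 CPM against 2.41 to 3.99, with overlap, and was not called (0.90, edgeR adjusted p = 0.0514).

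**Figure D2:**
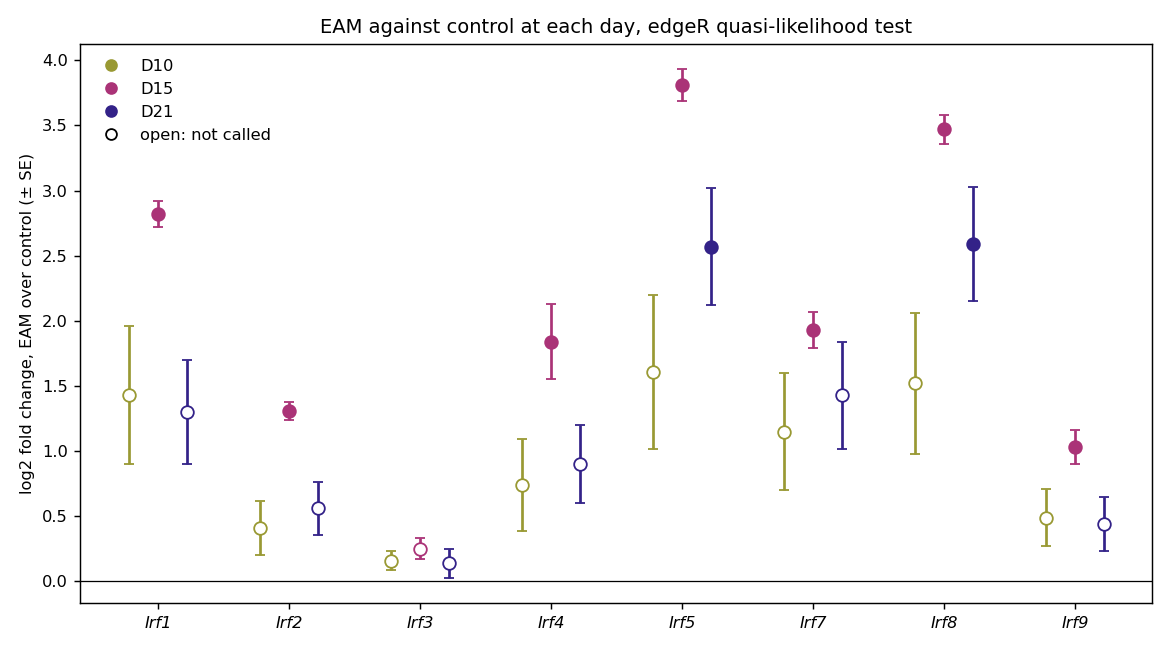
Log2 fold change of EAM over control (vertical axis, bars are ± SE) for each member at D10, D15 and D21, 4 hearts a group; filled points were called. At D15, 7 points are filled, and at D21 a pair, for Irf5 (2.57) and Irf8 (2.59), and all 24 points lie above 0.

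At D10 all 8 fitted differences were positive, from 0.16 for Irf3 to 1.61 for Irf5 on the log2 scale, and edgeR's adjusted p-values ranged from 0.328 to 0.356. None was called by edgeR's quasi-likelihood or likelihood ratio test, DESeq2 or limma-voom, which called 0%, 0.299%, 0.32% and 0% of all genes higher. At an unadjusted p under 0.05, 5 of 8 were higher (Irf1, Irf5, Irf7, Irf8 and Irf9), as were 9.49% of all genes tested. Without EAM replicate 1, 3 of 8 were (Irf1, Irf5 and Irf8), with 6.09% of all genes. In that fit the values dropped to 0.57 from 1.43 for Irf1, 0.63 from 1.61 for Irf5, 0.48 from 1.15 for Irf7, 0.68 from 1.52 for Irf8, 0.13 from 0.41 for Irf2, 0.44 from 0.74 for Irf4 and 0.27 from 0.49 for Irf9, while Irf3 had 0.15 in place of 0.16. Leaving that heart out, EAM replicate 3 was the highest for Irf1, Irf2, Irf3, Irf5, Irf7, Irf8 and Irf9, and EAM replicate 4 for Irf4. Set against all 12 control hearts instead of those of D10, 4 members were called at D10, Irf1 (1.52), Irf5 (1.77), Irf7 (1.27) and Irf8 (1.63), as were 4.09% of all genes (higher). Without EAM replicate 1 none was called against the 12 controls (0.61, 0.73, 0.56 and 0.74 for the same members, edgeR adjusted p = 0.0223 to 0.0277), with 0.278% of all genes called higher. The 12 controls were not alike in leukocyte genes: Ptprc ranged from 23.9 to 38.6 CPM at D10, 16.5 to 20.7 at D15 and 15 to 29.4 at D21, and 6 of 6 neutrophil markers had lower fitted values in D15 and D21 than in D10 controls (medians -1.84 and -1.64 on the log2 scale, none called).

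At D21 the 2 calls varied with which heart was left out. The adjusted p of both Irf5 and Irf8 rose above 0.01 when any 1 of the 4 controls, EAM replicate 1 or EAM replicate 2 was left out, up to 0.0315 and 0.0311, with the log2 change staying between 2.18 and 2.83 for Irf5 and between 2.16 and 2.85 for Irf8 over all 8 hearts left out. In the 6 fits that lost both calls, 0 to 0.126% of all genes were called higher, against 4.3% with all hearts. Without EAM replicate 3, 5 members were called, Irf1 (1.54), Irf4 (1.09), Irf5 (2.83), Irf7 (1.68) and Irf8 (2.85), with 9.8% of all genes called higher. With all 12 control hearts 5 members were called at D21, with 10.2% of all genes called higher, and 5 also without EAM replicate 3, with 11.5%. Without EAM replicate 4 the difference went from 1.30 to 0.74 on the log2 scale for Irf1, from 0.56 to 0.34 for Irf2, from 1.43 to 0.91 for Irf7 and from 0.44 to 0.24 for Irf9. DESeq2 and the likelihood ratio test called 4 members at D21 (Irf1, Irf5, Irf7 and Irf8), with 8.94% and 8.88% of all genes called higher. Limma-voom called 0, with 0.524% of all genes called higher, and 6 of 8 members were higher at an unadjusted p under 0.05 by the quasi-likelihood test, as were 25.4% of all genes (higher). Without EAM replicate 3 that held for 7 of 8, all but Irf3, and 28.9% of all genes. With the limit set at an adjusted p under 0.05, 4 members were called higher at D21, as were 9.37% of all genes.

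The change of the EAM effect from one day to the next was tested in a fit of all 24 hearts. From D10 to D15 no member was called by the quasi-likelihood test, while 5.3% of all genes were called higher. At an unadjusted p under 0.05, 5 of 8 were higher, as were 23.8% of all genes, and at an adjusted p under 0.05 with the 2-fold limit 2 of 8 were called higher, as were 9.56% of all genes. Without the fold limit 3 of 8 passed at an adjusted p under 0.05, as did 19.4% of all genes (higher). The largest differences were 2.15 for Irf5 (SE 0.66, edgeR adjusted p = 0.0131), 1.91 for Irf8 (SE 0.62, edgeR adjusted p = 0.0176) and 1.34 for Irf1 (SE 0.60, edgeR adjusted p = 0.0704) on the log2 scale, and Irf2 had 0.85 (SE 0.25, edgeR adjusted p = 0.0107). Without D10 EAM replicate 1 they became 3.13, 2.74, 2.20 and 1.13, and these 4 members were called, with 12% of all genes called higher. DESeq2 and the likelihood ratio test called Irf5 and Irf8, with 8.38% and 7.65% of all genes called higher, and limma-voom called 0, with 5.06%. Irf5 and Irf8 were also called without D21 EAM replicate 3 (6.59% of all genes), and Irf5 without D21 EAM replicate 4 (6.31%).

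From D15 to D21 every member's EAM effect was smaller, from -0.10 for Irf3 to -1.51 for Irf1 on the log2 scale. None was called by any of the 4 tests, and the quasi-likelihood test called 0.968% of all genes lower. At an unadjusted p under 0.05, 2 of 8 were lower, with 17.4% of all genes, Irf1 (-1.51, edgeR adjusted p = 0.0628) and Irf2 (-0.73, edgeR adjusted p = 0.0351). Irf8 had -0.88 (edgeR adjusted p = 0.284) and Irf5 -1.24 (edgeR adjusted p = 0.159). Without D21 EAM replicate 4, which had the highest Irf1 of its group, Irf1 was called, at -2.06, with 2.81% of all genes called lower. At an adjusted p under 0.05 without the fold limit, 1 member (Irf2) and 10.6% of all genes were lower.

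In control hearts no member was called at D15 or D21 against D10 by the quasi-likelihood test, the likelihood ratio test, DESeq2 or limma-voom, where 0.0797% and 0.27% of all genes were called by the quasi-likelihood test. At D15 none of the 8 had an unadjusted p under 0.05, with 3.58% of all genes higher and 3.21% lower at that limit, and at D21 1 of 8 did, with 7.66% of all genes higher. The 1 was Irf4, with a mean of 1.61 ± 0.315 CPM at D10, 2.32 ± 1.13 at D15 and 3.03 ± 0.711 at D21 (SD, n = 4), a difference of 0.92 on the log2 scale between D21 and D10 (SE 0.36, edgeR adjusted p = 0.262). Over the 12 controls the highest heart was 4.23-fold the lowest for Irf4, 1.91-fold for Irf8, 1.74-fold for Irf5 and 1.28-fold to 1.62-fold for the other members.

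The order of the 6 group means was led by D15 EAM for all 8 members. Its range was clear of the next group for Irf2, Irf4 and Irf5 and overlapped it for Irf1, Irf3, Irf7, Irf8 and Irf9. All other neighbours in the order overlapped. The D21 EAM mean came next for Irf2, Irf4, Irf5, Irf7 and Irf8, and the D10 EAM mean for Irf1, Irf3 and Irf9. Without D10 EAM replicate 1 the D10 EAM mean went from 138 to 76.2 CPM for Irf1 and from 55.6 to 47.8 for Irf9, so that D21 EAM (124 and 51.7 CPM) came next for both, and the ranges of D15 EAM and D21 EAM did not overlap for Irf1. Without D21 EAM replicate 3, D21 EAM also came next for both, at 147 and 57.8 CPM.

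Per kb of the principal transcript, the 8 members together held 85.1 ± 3.36 CPM per kb in D15 controls and 375 ± 35.5 in D15 EAM hearts (SD, n = 4). At D10 the sums were 93.4 ± 10.8 in controls and 185 ± 125 in EAM hearts, and at D21 91.6 ± 6.02 and 206 ± 104. Without D10 EAM replicate 1 the EAM sum was 124 ± 34.3, and without D21 EAM replicate 3 it was 239 ± 97.9 (n = 3). Irf1 had the largest share in every group, 24.7 ± 1.07% in D15 controls and 38.6 ± 2.44% in D15 EAM hearts. The share of Irf5 went from 4.48 ± 0.679% to 13.9 ± 1.01% and that of Irf8 from 5.32 ± 0.652% to 13.1 ± 0.572%, while that of Irf3 went from 16.6 ± 1.41% to 4.4 ± 0.520%. Irf4 held under 1% in every group, and 0.667 to 1.35% with the union of annotated exons as the length. These shares are descriptions, and a share falls when others rise: Irf3 itself was at 14.1 ± 0.942 CPM per kb in D15 controls and 16.4 ± 1.13 in D15 EAM hearts.

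**Figure D3:**
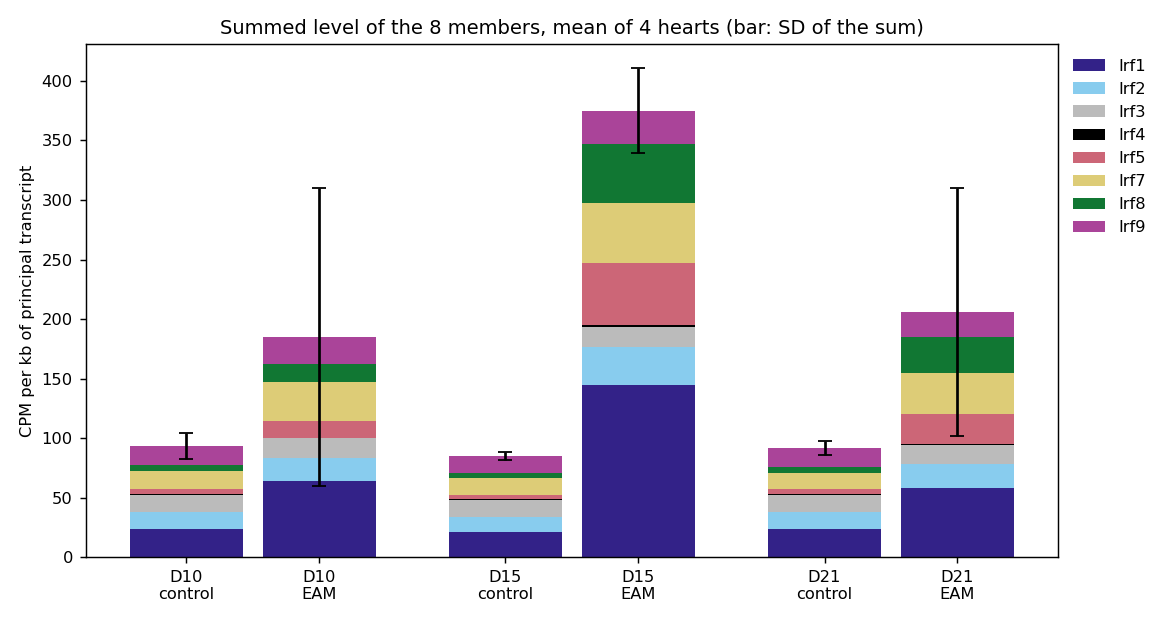
Mean CPM per kb of principal transcript of the 8 members, stacked, in the 6 groups (4 hearts each; the error bar is the SD of the sum). The D15 EAM column reaches 375 against 85.1 in D15 controls, with Irf1, Irf5, Irf7 and Irf8 as its widest bands.

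Leukocyte transcripts moved with the members. Ptprc (CD45, carried by all leukocytes) had 244 to 306 CPM in EAM hearts at D15 against 16.5 to 20.7 in controls (3.98 on the log2 scale, SE 0.12, edgeR adjusted p = 1.39e-08). The summed level of 10 monocyte and macrophage markers was 3543 to 4934 CPM against 515 to 579, and all 10 were called higher. Called higher at D15 were also 6 of 6 neutrophil, 7 of 8 T cell, 3 of 3 NK cell, 5 of 8 conventional dendritic cell, 1 of 2 plasmacytoid dendritic cell, 2 of 3 plasma cell, 1 of 4 fibroblast and 0 of 3 B cell markers tested (the other 2 B cell markers had too few reads). Fewer of them passed the filter at D10, with 1 NK cell, 5 T cell, 1 plasmacytoid dendritic cell and 2 plasma cell markers tested. Of the NK cell markers, 1 had at most 3 reads in every D15 control, so it was tested only because of its reads in EAM hearts. The counts of such low markers were partly set by the filter. At D15 12.9% of all genes were called lower. Of 6 cardiomyocyte markers 2 were called lower (median -1.20 on the log2 scale), and of 4 endothelial markers 1. At D21 the summed monocyte and macrophage level was 1248 to 4197 CPM in EAM hearts against 464 to 723, with 6 of 10 called higher, and at D10 816 to 3110 against 529 to 1156, with 0 of 10 called. Without D21 EAM replicate 3 the EAM range was 2197 to 4197 CPM with 9 of 10 called, and without D10 EAM replicate 1 it was 816 to 1527 with 0 of 10 called. No marker of any list was at 0 in all libraries of a group. The part of these cells in the members' changes was not tested.

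The reads of each member were therefore set beside those of Ptprc in the same library, a ratio that no scaling changes. For Irf5 the log2 ratio was -1.36 to -1.09 in D15 EAM hearts and -1.51 to -0.87 in controls, and for Irf8 it was -1.13 to -0.77 against -0.84 to -0.11. Both members overlapped between arms at every day, and at D21 the 4 EAM hearts had an Irf8 ratio between -0.67 and -0.62 although Irf8 itself ranged from 31.2 to 148 CPM. At D15 and D21 the other 6 members were lower relative to Ptprc in EAM hearts, with no overlap. The mean difference at D15 was -1.17 for Irf1, -1.97 for Irf4, -2.08 for Irf7, -2.67 for Irf2, -2.95 for Irf9 and -3.72 for Irf3 on the log2 scale.

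**Figure D4:**
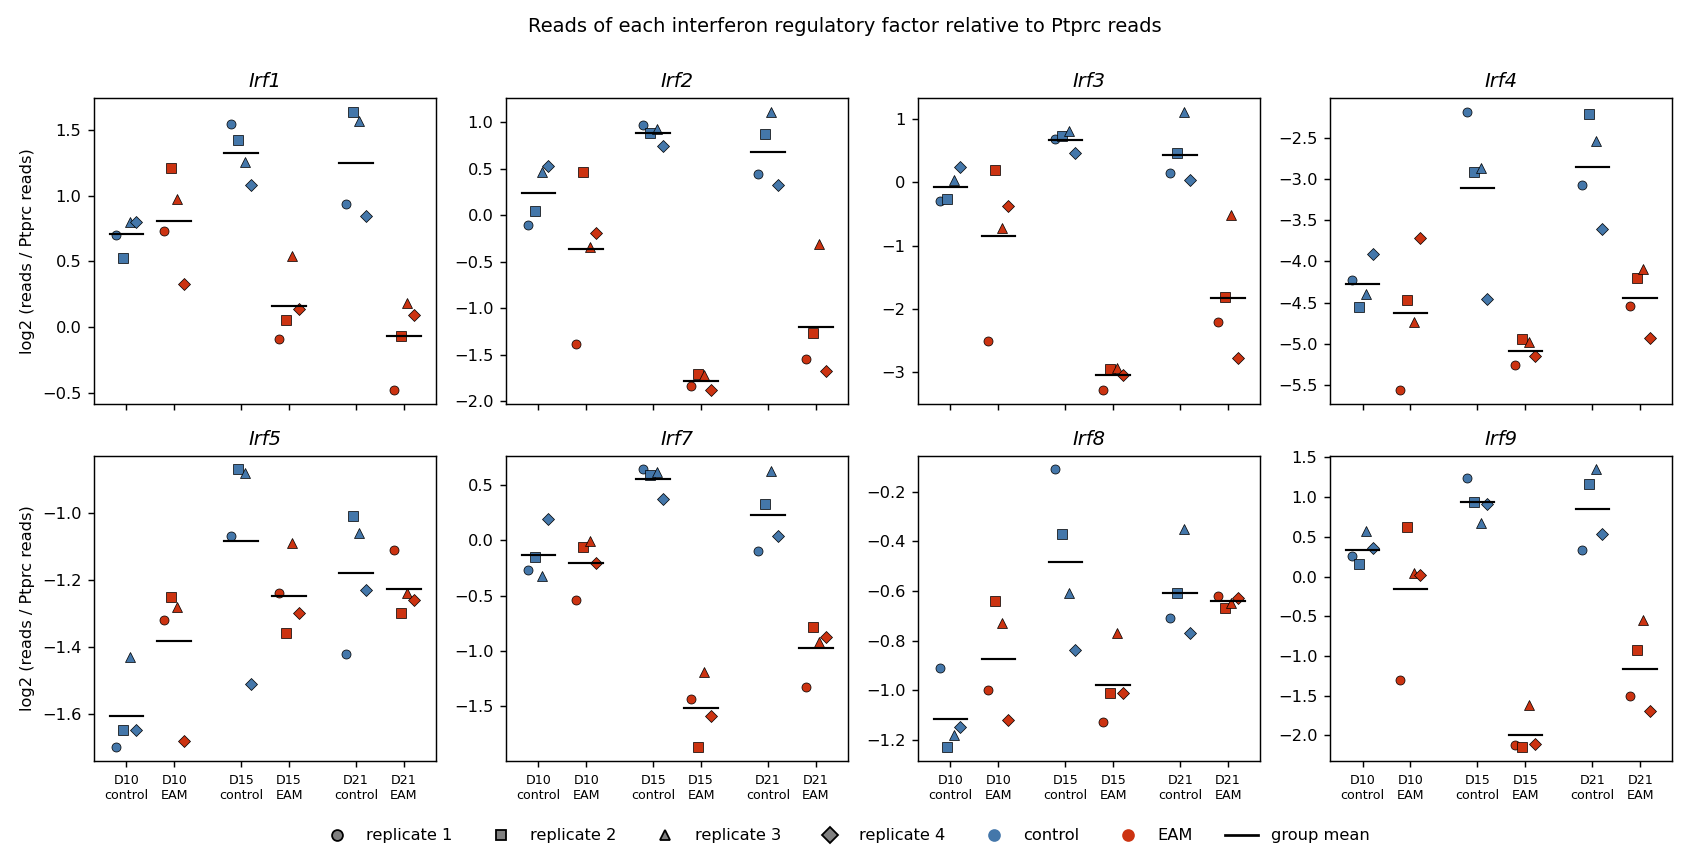
Log2 ratio of each member's reads to Ptprc reads (vertical axis, a scale of its own in each panel) in the 24 hearts, by day and arm, with the group mean of 4. EAM hearts sit below the controls at D15 and D21 in 6 panels, and overlap them for Irf5 and Irf8.

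With the summed reads of the 10 monocyte and macrophage markers as the reference, the D15 differences were 0.78 for Irf5, 0.45 for Irf8 and -0.22 for Irf1 in place of -0.17, -0.50 and -1.17. Irf5 and Irf8 thus changed sign with the reference, and the other 6 members stayed below 0 at D15, from -0.22 to -2.78. With this reference Irf5 was higher in EAM hearts at D15 without overlap, Irf1, Irf4 and Irf8 overlapped between arms, and Irf2, Irf3, Irf7 and Irf9 were lower without overlap. At D10 all 8 members overlapped between arms relative to Ptprc.

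Genes around the family were taken by role, and the counts below stand against 18.1% of all genes called higher at D15 and 4.3% at D21. Of 11 interferon genes, Ifng had 697 reads in the 24 libraries and the other 10 had 0 to 3. Ifng, the T and NK cell cytokine that induces Irf1, had 120, 68, 154 and 118 reads in EAM hearts at D15 and 0, 1, 1 and 0 in controls, a ratio of 186 after division by library size for the sums of 460 and 2 reads (95% exact interval 51.1 to 1538, counting error only). At D10 the EAM hearts had 128, 0, 12 and 2 Ifng reads, with replicate 1 as high as the D15 hearts, and at D21 15, 13, 1 and 59. Ifnb1 had 1 read in all, Ifne 1 and Ifnk 3, and Ifna1, Ifna2, Ifna4, Ifna5, Ifna6, Ifnl2 and Ifnl3 had 0 reads in every library. For reads placed in a single gene this allows up to 0.12 to 0.19 CPM in each. Reads that mapped to several places were not counted by the study, so they are not covered by this limit.

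Of 11 receptor and JAK-STAT genes, 6 were called higher at D15 and 0 lower, with a median log2 change of 1.0 against 0.02 over all genes tested. Stat2 is given above, and Jak2, a kinase of the interferon-gamma receptor, rose by 1.44 (SE 0.06, edgeR adjusted p = 1.08e-07). At D21 none of the 11 was called, with 7 higher at an unadjusted p under 0.05, as were 25.4% of all genes. Ifnar2, a subunit of the type I interferon receptor, had 0.91 there (edgeR adjusted p = 0.0138) and Stat2 0.91 (edgeR adjusted p = 0.059).

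Of 22 tested sensors and adaptors that feed Irf3, Irf5 and Irf7, 14 were higher and 1 lower at D15 (median 1.31). The kinase gene Ikbke had 72.0 ± 6.96 CPM in EAM hearts and 2.18 ± 0.188 in controls (5.08, edgeR adjusted p = 6.80e-09), Ticam2, an adaptor of Tlr4, rose by 3.45 and Tlr9, a DNA sensor, by 3.43. The 1 lower was Mavs, the mitochondrial adaptor of RNA sensors, at 60.1 ± 8.25 against 130 ± 10.4 CPM (-1.08, edgeR adjusted p = 1.28e-05); it was named after its value was seen, and with total-count scaling it was not called. At D21 Ikbke (3.22) and Ticam2 (2.18) were called, 2 of 22.

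Of 6 partners of Irf4 and Irf8 that were tested at D15 and D21 (5 at D10), 5 were higher at D15 (median 3.81) and 3 at D21 (median 2.82). Spi1, which encodes PU.1, had 143 ± 14.2 CPM against 10.4 ± 1.17 at D15 (3.82, edgeR adjusted p = 1.38e-08) and was called at D21 (2.84). Batf2 rose by 4.10 and Spib, a relative of Spi1, by 4.79 at D15, and at D21 Spib (4.36) and Batf3 (2.99) were called. Spib had 1 to 5 reads in every control heart of D15 and D21 and so was tested only because of its reads in EAM hearts, and its fitted change is imprecise. Batf3 had 5 to 14 reads in D21 controls, with 10 or more in 2 of them, so it too passed the filter at D21 only through its reads in EAM hearts. Spib and Batf3 both count among the 3 called at D21.

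Of 10 negative regulators, 6 were higher at D15 (median 1.17) and 2 at D21 (median 0.52). Socs1 and Socs3, feedback inhibitors of JAK kinases, rose by 4.86 and 4.73 at D15 and the phosphatase gene Ptpn6 by 3.90. Socs3 (3.49) and Ptpn6 (2.87) were called at D21.

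Downstream of the family, 2 lists were taken. Of 22 genes that ISGF3 typically drives, 15 were higher at D15 (median 1.66) and 1 at D21 (median 0.99), led at D15 by the nucleic acid sensor gene Zbp1 (5.04), Oas3 (4.89) and the antiviral gene Mx1 (3.11), and the 1 at D21 was Zbp1 (3.88), a share of the list close to the 4.3% of all genes. Of 22 tested genes of the interferon-gamma and Irf1 type, 20 were higher at D15 (median 2.87), and 7 of 21 at D21 (median 2.08). Among its called genes at D15 were the CXCR3 ligand chemokine genes, with fitted changes of 8.22 for Cxcl11, 7.04 for Cxcl10 and 6.94 for Cxcl9, with Cxcl9 at 323 ± 36.2 CPM against 2.70 ± 0.446. At D21 they were 6.46, 4.81 and 5.45. Cxcl11 had 1 to 9 reads in the control hearts of both days, so it too was tested only because of its reads in EAM hearts. The same held for Cxcl10 at D15, with 5 to 20 reads in the controls and 10 or more in 1 of them. Both count among the 20 called at D15, and the size of these changes is imprecise. The difference between the lists was not tested.

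At D21 the list counts were higher without EAM replicate 3. There, where 9.8% of all genes were called higher, 2 of 11 receptor and JAK-STAT genes were called higher, 10 of 22 sensors and adaptors, 4 of 5 partners, 3 of 10 negative regulators, 11 of 22 ISGF3-type genes and 14 of 20 interferon-gamma and Irf1-type genes. The medians were 0.64, 0.78, 3.06, 0.67, 1.19 and 2.29 on the log2 scale in the same order.

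**Figure D5:**
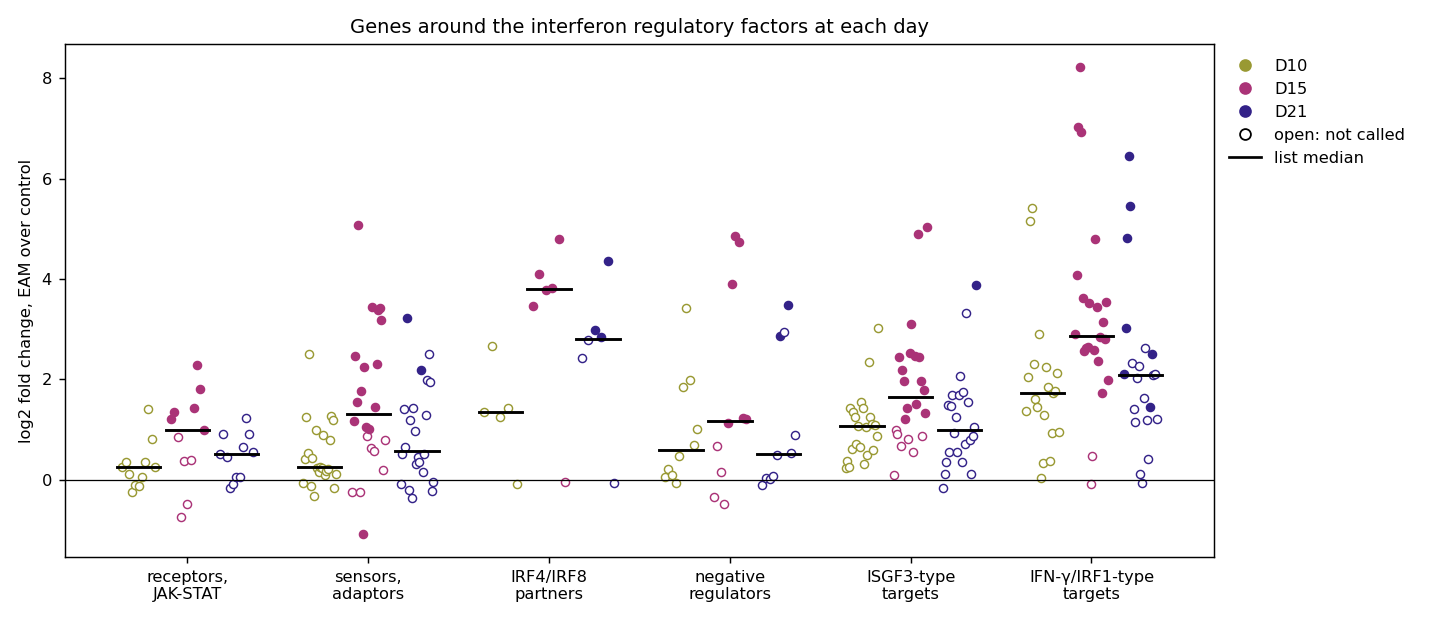
Log2 fold change of EAM over control (vertical axis) for each tested gene of 6 lists at D10, D15 and D21, 4 hearts a group; filled points were called and lines are list medians. At D15 the medians run from 1.0 for receptors and JAK-STAT genes to 3.81 for partners of Irf4 and Irf8, and no point is filled at D10.

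At D10 no gene of these lists was called, as none was among all genes tested. Higher at an unadjusted p under 0.05 were 17 of 19 interferon-gamma and Irf1-type genes, 10 of 22 ISGF3-type genes, 3 of 5 partners, 4 of 10 negative regulators, 3 of 22 sensors and adaptors and 2 of 11 receptor and JAK-STAT genes, against 9.49% of all genes. Without EAM replicate 1 these counts were 11 of 19, 5 of 22, 2 of 5, 4 of 10, 2 of 22 and 2 of 11, against 6.09% of all genes. Without EAM replicate 1 the median of the interferon-gamma and Irf1-type genes was 0.79 in place of 1.74 on the log2 scale, that of the ISGF3-type genes 0.37 in place of 1.07 and that of the partners 0.62 in place of 1.36.

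The genes whose pattern over the 24 hearts was most like each member's were found by the root mean square difference of log2(CPM + 1) profiles centred on their mean, among 14216 other genes. The hearts share arm, day and leukocyte level, so the likeness is a description. Irf5 and Irf8 were among each other's nearest 3, at a difference of 0.18, where the profiles themselves had a spread of 1.45 and 1.39. The others nearest to Irf5 were Psd4 (0.16) and Tifab (0.17), and those nearest to Irf8 were Map4k1 (0.17) and Capg (0.18).

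Irf7 lay nearest to the interferon-induced genes Ifit1 (0.15) and Bst2 (0.18) and to Phf11a (0.18). Irf1 lay nearest to Ubash3b (0.19), to Gbp7, an interferon-gamma induced GTPase gene (0.20), and to Samhd1, which encodes an antiviral dNTP hydrolase (0.20). Irf2 lay nearest to Trafd1 (0.09), Sec61a1 (0.10) and Stt3a (0.10), and Irf9 to Ogfr, Dnajb11 and Vwa5a (0.16 each). Irf4 lay nearest to Mbp (0.23), Pycr1 (0.26) and Fut4 (0.26).

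Irf3 had the flattest profile, with a spread of 0.12, and lay nearest to Ddx39b, Sf3a2 and Prr14 (0.08 each), the first 2 of which encode RNA splicing and export factors. The member closest to it, Irf9, was at rank 8216 with a difference of 0.37.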

How the data were processed

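Libraries of 24 hearts were sequenced as read pairs. The authors aligned the pairs to GRCm38 with HISAT2 2.0.4, removed duplicates with Picard and deposited the raw counts that featureCounts gave for Ensembl genes, not normalized. Removing duplicates can lower the count of abundant genes. The sample files and the joint table differed in 0 cells, and 92 spike-in features held 0 reads.

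For each day, a gene was kept if 4 or more of the 8 libraries held 10 or more of its reads, and EAM and control hearts were compared in R 4.3.3 with edgeR 4.0.16 (TMM, quasi-likelihood test), adjusted by Benjamini-Hochberg over all genes kept. Calls required an adjusted p under 0.01 and at least a 2-fold change. Contrasts between days and between controls used 1 fit of all 24 libraries with the same filter in at least 4 of them. The SE is the log2 fold change divided by the square root of F. The fit was tested on simulated data. Alternatives used limma 3.58.1, DESeq2 1.42.0, other size factors, limits and filters, all 12 controls, a block for the replicate number and each library left out. Those chosen after seeing the data were the legacy option of edgeR's quasi-likelihood fit, the union of exons as the length, and the gene lists, group means and overlaps without D10 EAM replicate 1 or D21 EAM replicate 3, as well as the 12-control fits without these.

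CPM was normalized over all 24 libraries, with lengths from the APPRIS principal transcript of GENCODE M21. Promoter windows came from RefSeq. Values were tabulated in Python 3.11.15. The members, gene lists and tests were chosen with earlier results of these data known. Genes named are the 8 members, Rnf31 and Tnpo3 (which share exon bases with members), Ptprc, Stat2, the interferon genes, and Mavs, named after its value was seen. By rule, in each pathway list at D15 and D21 the 3 largest changes among called genes are named (or, with none called, the 3 largest changes among genes averaging 1 CPM or more). The 3 genes nearest to each member are named too. A gene that this rule also names is not reported here. Gene and start positions were taken from GRCm38.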

Additional observations from a re-analysis of the deposited data

Results flagged for a closer look

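The EAM effect differed between days at an adjusted p under 0.05, by edgeR's quasi-likelihood test of the difference itself, for 3 members between D10 and D15: Irf5 by 2.15, Irf8 by 1.91 and Irf2 by 0.85 on the log2 scale. The corresponding adjusted p-values were 0.0131, 0.0176 and 0.0107, all above the 0.01 limit used for calls, and 19.4% of all genes were higher at an adjusted p under 0.05. Between D15 and D21 it differed at this limit for Irf2, at -0.73 (edgeR adjusted p = 0.0351), as 10.6% of all genes were lower at this limit. In each of these the D15 EAM hearts had the highest group mean. Without D10 EAM replicate 1 the D10 to D15 differences were 3.13 for Irf5, 2.74 for Irf8 and 1.13 for Irf2. In the 48 sets of 4 hearts (8 members in 6 groups) no heart passed Dixon's 95% limit for 4 values. With so few values only a very extreme heart can pass, so this does not show that no heart stood apart. D10 EAM replicate 1 did not pass for Irf5, at 77.5 CPM against 11.7 to 23.3 in the other D10 EAM hearts.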

How the results depend on the processing

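At D15 the count of 7 called members became 6 or 7 with each library left out, and at D10 the count of 0 stayed 0 with each library left out. With all 12 control hearts 4 members were called at D10 and 5 at D21, in place of 0 and 2, with 4.09% and 10.2% of all genes called higher. Without D10 EAM replicate 1 or D21 EAM replicate 3 these 12-control counts were 0 and 5. At D21 the likelihood ratio test and DESeq2 each called 4, limma-voom 0, the limit of an adjusted p under 0.05 4, and leaving out each library 0 to 5. In the 6 fits that lost both D21 calls, 0 to 0.126% of all genes were called higher. For the difference between D10 and D15, with 0 called, the likelihood ratio test, DESeq2, the replicate block and the limit of an adjusted p under 0.05 each gave 2, and leaving out each library 0 to 4. For the difference between D15 and D21, with 0 called, leaving out each library gave 0 to 1. Why the other tests and limits gave other counts was not tested. Under the alternatives 173 counts of members called stayed within 1.5 times and 22 did not, and edgeR's legacy fit, other size factors and no filter moved none of these counts of members. Among the pathway lists, total counts moved the receptor and JAK-STAT genes called higher between D10 and D15 from 1 to 3, and the other 10 counts that moved by over 1.5 times did so without D10 EAM replicate 1 or D21 EAM replicate 3.

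Deviations of EAM and control hearts with the same number correlated by -0.0827 to 0.368 at D10, -0.0955 to 0.0351 at D15 and 0.0966 to 0.303 at D21, so the numbers were not taken to pair the hearts, since not every pair was over 0.1. At D21 3 of 4 pairs were over 0.1 and 7 of 8 hearts correlated best with their own number, a hint from the data. With the replicate number as a block, 0, 7 and 2 members were called at D10, D15 and D21, with 0.00665%, 17.7% and 4.23% of all genes called higher, and the block changed no other call than the 2 above (Irf5 and Irf8 between D10 and D15, with 6.4% of all genes called higher).

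The 1 change of sign in EAM against control was Irf4 at D10 with all 12 controls and without EAM replicate 1, at -0.12 in place of 0.74, neither called. Differences between controls of 2 days, all near 0 and not called, also changed sign. Irf3 at D21 against D10 was -0.02 with median-ratio size factors, -0.01 in DESeq2, -0.0023 in limma-voom and -0.003 with the replicate block, in place of 0.0017, and with total counts Irf8 was 0.03 and Irf9 0.04. With each library left out, control D21 against D10 ran from -0.06 to 0.14 for Irf1, -0.05 to 0.07 for Irf3, -0.22 to 0.04 for Irf5, -0.15 to 0.18 for Irf8 and -0.11 to 0.08 for Irf9, and D15 against D10 from -0.08 to 0.0043 for Irf3 and -0.30 to 0.03 for Irf8. Total counts moved the median of all genes at D15 from 0.02 to 0.17 on the log2 scale and the change of Irf3 to 0.41, still under 2-fold. With the union of exons as the length, 32 of 48 family shares moved by over 1 SD. Irf4, the least abundant member, rests on 16 to 238 reads a library, which limits its precision.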
